A study of Hordeum vulgare with 10 samples.

Results

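A set of 45 barley genes was expressed more strongly in heated roots and less strongly in heated shoots than in the same tissue of control plants. They were chosen from the deposited group means of 24211 genes with an Ensembl Plants identifier (MLOC) that stand in the tables of both tissues. Of these, 10895 had a mean over both conditions of at least 50 normalized counts in each table and were not on the study's list of phosphate-related genes. The heat ratio of a gene is its mean in heat plus 1, divided by its mean in control plus 1. A gene was taken when this ratio was at least 1.5 in roots and at most 0.67 in shoots, which 0.413% of the 10895 genes met. The heat response in each tissue therefore chose the genes, and all heat ratios, counts of heat calls and distances between heated and control libraries given below describe the choice and test nothing. None of the 10 phosphate-related genes with an identifier met the thresholds. The tables give no gene name and no note for any of the 45 genes, and none of the 45 identifiers was matched in the RefSeq gene table of the MorexV3 assembly, so that they are described by identifier only.

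Spring barley of cultivar Rolap was grown to an age of 2 weeks and either held at 22 °C (control) or moved to 35.5 °C for 1 h (heat), in an experiment on how heat acts on phosphate-related genes. Poly(A) RNA of roots or shoots was sequenced from strand-specific libraries. There were 2 control and 2 heat libraries of roots, and 3 control and 3 heat libraries of shoots, stated to be biological replicates. All plants were of the same cultivar and without a transgene or mutation named in the labels, and shoots and roots were each taken as a bulk tissue, so that fewer cells of a type and less RNA per cell cannot be told apart.

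When a plant is heated, heat shock transcription factors switch on the genes of heat shock proteins, chaperones that hold and refold unfolded proteins. At the same time, many transcripts of growth, photosynthesis and metabolism become less abundant. Roots and shoots differ in cell types, metabolism and surroundings, and a transcript level in either tissue follows from both its synthesis and its decay.

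A normalized count is the number of reads of a gene divided by the size factor of its library, a scale set by the typical gene. The deposited tables hold group means only, but with enough digits to recover the whole reads of each library. All 45 genes were split in this way, each with a single solution found in all 4 groups. The libraries recovered in this way have no letter of a replicate, and they are numbered here within each group from the largest to the smallest size factor, the order in which values are listed. Over the genes split in every group, a root library held 14424487 to 16104837 reads and a shoot library 7573583 to 8891261. In shoots, 141 genes with a larger group mean of at least 10765.9 could not be split. They held 46.3% of the normalized counts in genes in control and 49.8% in heated shoots. Hsp90.1 (MLOC_5618), a cytosolic chaperone gene used by the study as its marker of heat, had means of 163 normalized counts in control and 196171 in heated roots, and of 51.0 in control and 30076.5 in heated shoots. MLOC_28370, whose reads may come from PHT1;1 or from near-identical PHT1 transporter genes, and PHT1;4 (MLOC_6187), both root markers, had at most 3 reads in any shoot library, against at least 77 and 1105 reads in every root library. No marker of shoots with an identifier was at hand. Root and shoot tables were normalized separately by the authors, so that normalized counts are compared below only within a tissue.

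Of the 10895 genes, 2004 (18.4%) had a root ratio of at least 1.5, and the 45 genes were 2.25% of them. The median shoot ratio of those 2004 genes was 1.42. A shoot ratio of at most 0.67 was found for 1158 genes (10.6%), and the 45 genes were 3.89% of them. The median root ratio of those 1158 genes was 0.677. By the same thresholds, 887 genes were higher in both heated tissues and 570 were lower in both, and the mirror image, lower in heated roots and higher in heated shoots, was met by 31 genes. A further 643 genes were higher in heated roots with a shoot ratio between 0.8 and the inverse of 0.8.

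**Figure D1:**
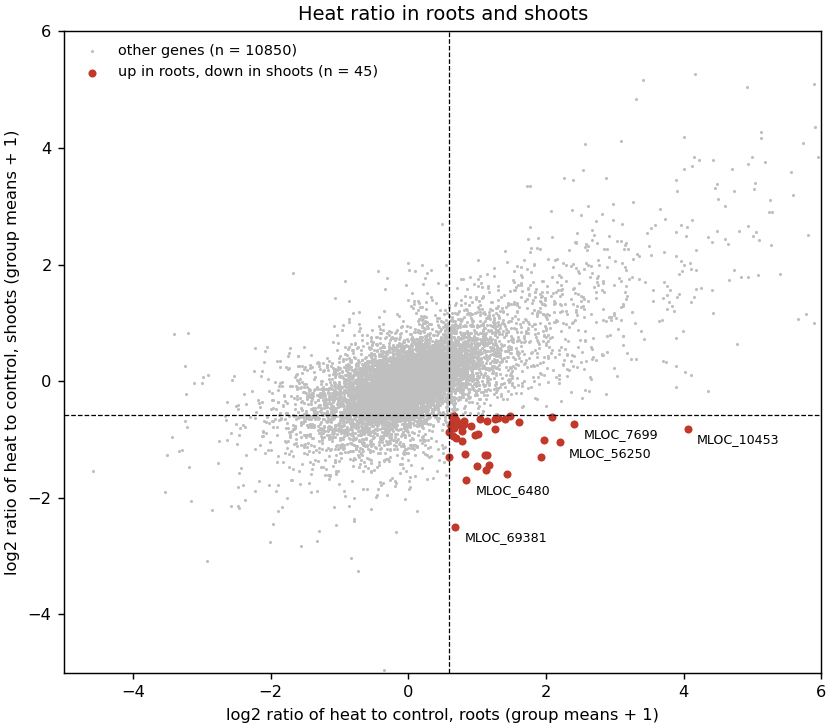
Heat ratio of each gene in roots (horizontal axis) and shoots (vertical axis), both as log2 of the mean in heat plus 1 over the mean in control plus 1. Red points are the 45 genes, grey points the other genes with a mean of at least 50 in each table, and dashed lines mark the thresholds of 1.5 and 0.67. In all, 66 genes lie beyond the axes. The red points fill the corner at lower right that the thresholds define.

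Among the 45 genes, the root ratio ranged from 1.51 to 16.6 with a median of 1.88, against a median of 1.05 over the 10895 genes. Their shoot ratio ranged from 0.177 to 0.663 with a median of 0.571, against 1.01. A root ratio of at least 2 was reached by 20 genes, a shoot ratio of at most 0.5 by 14, and both by 8. The change on the log2 scale was larger in roots than in shoots for 25 of the 45 genes. Mean levels over both conditions ran from 52.0 to 3624 normalized counts in roots and from 56.3 to 6017 in shoots. Summed over the 45 genes, the root libraries held 20235 and 22885 normalized counts in control and 43242 and 45174 in heat. The shoot sums were 41466, 48503 and 43328 in control and 21214, 21399 and 25022 in heat. As a share of all normalized counts in genes, the set went from 0.156% in control to 0.229% in heated roots, and from 0.309% to 0.134% in shoots.

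The values just at the thresholds show where the set ends. Just inside the root threshold, MLOC_55847 and MLOC_69270 both had a root ratio of 1.51. Just outside it, MLOC_1250 had a root ratio of 1.499 at a shoot ratio of 0.564, and MLOC_75911 one of 1.48 at a shoot ratio of 0.597. Just inside the shoot threshold, MLOC_43777 and MLOC_87 had shoot ratios of 0.661 and 0.663. Just outside it, MLOC_82071 had a shoot ratio of 0.676 and a root ratio of 1.73, and MLOC_58508 had 0.677 and 2.43. These genes on either side differ little, and the set has no natural edge there.

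The separation of the libraries was as follows. In roots, both heated libraries lay above both control libraries for 43 of the 45 genes (41.7% of the genes with a mean of at least 50 in each table and reads split in all groups), and in shoots all 3 heated libraries lay below all 3 control libraries for 40 (25.9%). Both orders held for 38 genes (3.94%). The lowest heated root library was a median of 1.65 times the highest control root library, and at least 1.5 times for 31 genes. In shoots, the lowest control library was a median of 1.45 times the highest heated library, and at least 1.5 times for 19 genes. Tested with edgeR's quasi-likelihood test on the recovered reads, within each tissue and adjusted over all genes tested, 40 of the 45 genes were higher in heated roots at an adjusted p under 0.05 (21.5% of all genes tested) and 41 were lower in heated shoots (19.7%). Among genes with a mean of at least 50 in each table, the shares called were 25.9% and 20.2%. In both tissues 36 of the 45 genes were called (1.14% of the latter genes). In a fit of all 10 libraries, the root response was above the shoot response for 42 genes (7.69% of all genes tested and 10.1% of those with a mean of at least 50 in each table). All 45 genes passed the filter on low counts in each fit. Because the thresholds used the same contrasts, nothing is read from these counts. The 5 genes not called in roots were MLOC_3813, MLOC_4858, MLOC_54499, MLOC_55847 and MLOC_69381, and the 4 not called in shoots were MLOC_1690, MLOC_11835, MLOC_72157 and MLOC_73077. Some of these were named after their values had been seen.

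**Figure D2:**
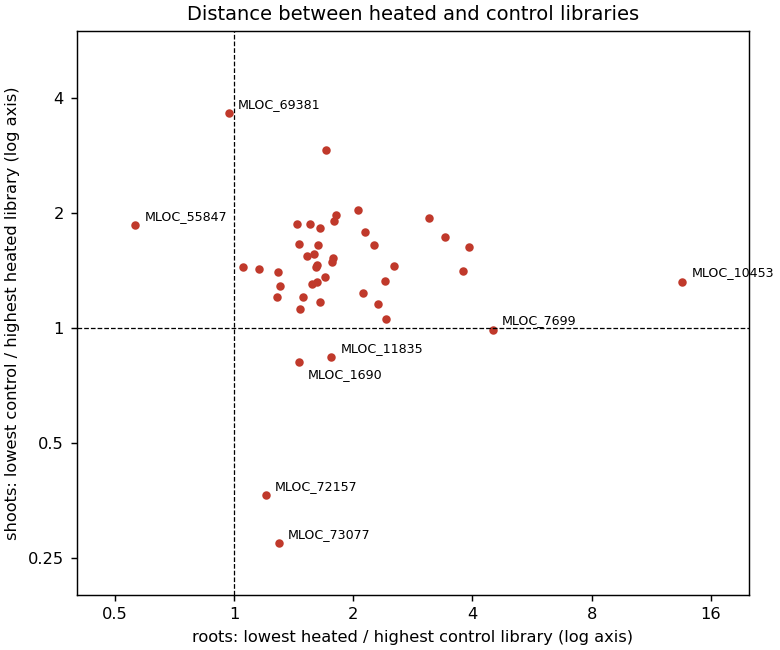
Distance between heated and control libraries for the 45 genes, as the lowest heated over the highest control normalized count in roots (horizontal, log axis) and the lowest control over the highest heated one in shoots (vertical, log axis). Above 1 on an axis, the libraries of the 2 conditions do not overlap in that tissue, which holds for 38 genes on both axes. MLOC_10453 lies far to the right at 13.6, and MLOC_73077 lowest at 0.273.

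The scale on which the ratios rest matters for the membership. Size factors give the typical gene a heat ratio near 1, while the deposited group means summed over all genes were larger in heat in both tissues. If each mean is divided by that sum instead, every root ratio is multiplied by 0.717 and every shoot ratio by 0.854. Then 26 genes meet the thresholds, 18 of them among the 45. All 45 genes kept a root ratio above 1 and a shoot ratio below 1 on this scale, but with total reads as the scale edgeR called 21 in heated roots rather than 40.

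The 6 genes with the highest root ratio were MLOC_10453, MLOC_7699, MLOC_56250, MLOC_57804, MLOC_56819 and MLOC_5705. The largest rise was that of MLOC_10453, which had few reads in control roots. It had 11.5 and 8.62 normalized counts in control roots, from 14 and 10 reads, and 209.6 and 155 in heated roots, from 179 and 130 reads. In shoots it had 2083, 2107 and 1593 in control and 1143, 1203 and 939 in heat. The libraries did not overlap in either tissue, and even the heated root level rests on few reads beside those of the shoots. The root ratio was 16.6 and lay between 14.2 and 19.1 when any one root library was left out, and the shoot ratio was 0.568.

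MLOC_56250 also had a small root and a large shoot count. Its control roots had 82.7 and 97.4 normalized counts and its heated roots 382 and 452. The control shoots had 4653, 5035 and 6880.4 and the heated shoots 2849.6, 2620.0 and 2549.7. Control shoot library 3 stood high, but the conditions were apart in both tissues, with ratios of 4.59 in roots and 0.484 in shoots.

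MLOC_7699 had 245 and 309.6 normalized counts in control and 1396 and 1565 in heated roots, a ratio of 5.33. In its shoots the conditions met, with 1826, 2608 and 2366 in control and 1139, 1099.8 and 1842 in heat. Heat shoot library 3 reached the lowest control library, and without it the shoot ratio was 0.494 rather than 0.600.

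MLOC_57804 had 359 and 407 normalized counts in control and 1539 and 1718 in heated roots, and in shoots 200.3, 223 and 193 in control and 131, 133 and 137 in heat. MLOC_56819 had 326 and 388 in control and 1326 and 1474 in heated roots, and in shoots 141, 164 and 142 in control and 66.7, 73.3 and 81.5 in heat. Libraries of a group lay close together for both genes and the conditions were far apart in roots, with root ratios of 4.25 and 3.91 and shoot ratios of 0.652 and 0.499.

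Ranked by the smaller of the 2 changes, so that a gene must move far in both tissues, the first 6 genes were MLOC_55834, MLOC_5705, MLOC_72841, MLOC_58764, MLOC_15436 and MLOC_24640. MLOC_55834 had 233 and 324 normalized counts in control and 816 and 696 in heated roots. Its shoots went from 86.6, 179 and 159 to 47.2, 48.5 and 43.6. The root ratio was 2.71 and the shoot ratio 0.333, and the low control shoot library 1 still lay well above every heated shoot library. MLOC_5705 had 136 and 154 in control and 480.1 and 629 in heated roots, and 1301, 1375 and 1315 in control and 511, 439.9 and 668 in heated shoots. Its control libraries were close together in both tissues, its heated ones more spread, and the ratios were 3.80 and 0.406.

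MLOC_72841 had 134 and 164 normalized counts in control and 339.6 and 337 in heated roots, and 206, 258 and 279 in control and 92.4, 78.7 and 101 in heated shoots. MLOC_58764 had 40.1 and 59.5 in control and 107 and 116 in heated roots, and 318, 394 and 296 in control and 126, 155 and 135 in heated shoots. MLOC_24640 had 96.6 and 89.7 in control and 232 and 175 in heated roots, and 92.5, 89.2 and 81.7 in control and 39.0, 27.0 and 41.3 in heated shoots. For all these genes both conditions were apart in both tissues, with root ratios of 2.26, 2.21 and 2.17 and shoot ratios of 0.369, 0.415 and 0.414. MLOC_15436 had 93.3 and 139 in control and 225 and 286 in heated roots, and 185, 482 and 196 in control and 106, 67.9 and 126 in heated shoots. Its control shoot library 2 stood far above the others, and without it the shoot ratio was 0.527 rather than 0.350.

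**Figure D3:**
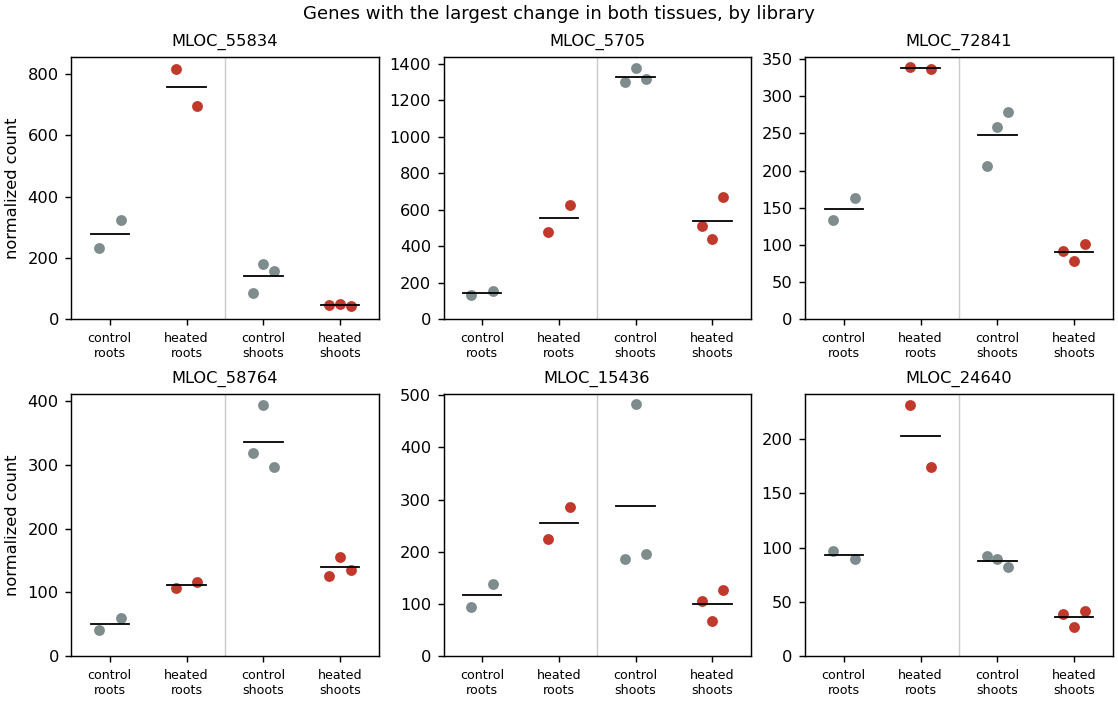
Normalized counts of the 6 genes with the largest change in both tissues, 1 panel a gene. Each point is a library (grey control, red heat; 2 per root group and 3 per shoot group), black lines are group means, and the vertical line parts roots from shoots, whose values are on separate scales. In every panel the red points lie above the grey ones in roots and below them in shoots, and MLOC_15436 has 1 control shoot library far above the rest at 482.

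The deepest falls in shoots were those of MLOC_69381 and MLOC_6480. MLOC_69381 had 332, 434 and 431 normalized counts in control and 56.4, 62.5 and 90.7 in heated shoots, a ratio of 0.177, with a wide gap between the conditions. In roots it had 394 and 648 in control and 629 and 1042 in heat. The lower heated root library did not reach the higher control one, so the root ratio of 1.60 is within the spread of its libraries. MLOC_6480 went from 9309, 9094 and 9185 to 2804, 2612 and 3098 in shoots, a ratio of 0.309 with all libraries of a group close together. In roots it went from 2155 and 2272 to 3887 and 4048, a ratio of 1.79, also without overlap. This gene was among the 3 with the most counts in roots and in shoots alike. Counts are not corrected for gene length, so that this is no ranking of transcript abundance.

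MLOC_76410 and MLOC_19090 had the other high counts in roots. MLOC_76410 had 1581 and 2377 normalized counts in control and 3435 and 4482 in heated roots, and 303, 371 and 309 in control and 162, 112 and 83.8 in heated shoots. MLOC_19090 had 2480.2 and 2772 in control and 4572 and 4671 in heated roots, and 687, 816 and 608 in control and 264, 292 and 333 in heated shoots. The conditions were apart in both tissues for these genes, with root ratios of 2.00 and 1.76 and shoot ratios of 0.366 and 0.422. MLOC_13187, with the most counts in shoots after MLOC_6480, went from 7349, 7132 and 7131 to 4057, 4421 and 4933 there and from 183 and 199 to 321 and 351 in roots. Its libraries were apart as well, with ratios of 0.621 in shoots and 1.76 in roots.

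Of the genes at the thresholds, MLOC_43777 had 692 and 794 normalized counts in control and 2014 and 2129 in heated roots, a ratio of 2.78. Its shoots held 208, 206 and 228 in control and 142, 140.2 and 141 in heat, a small but clear step. MLOC_87 had 620.5 and 772 in control and 1007 and 1195 in heated roots, and 1394, 1621 and 1386 in control and 878, 962 and 1074 in heated shoots. MLOC_69270 had 494 and 526 in control and 766 and 772 in heated roots, and 658, 638 and 684 in control and 346, 347 and 385 in heated shoots. None of these overlapped between conditions, although at least 1 of the changes of each gene was near the smallest that the rule admits. MLOC_87 was near both limits, with ratios of 1.58 in roots and 0.663 in shoots, and met the rule in 6 of 10 runs with a library left out. The 20 genes not singled out by any of these rankings had root ratios of 1.54 to 3.05 and shoot ratios of 0.489 to 0.651, and in all 20 the libraries were apart in both tissues.

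The responses of a few genes rested on single libraries. In MLOC_73077, control shoot library 2 had 1627 normalized counts beside 249 and 227, and heat shoot library 3 had 831 beside 198 and 169. MLOC_72157 had the same outline, with 205, 954 and 141 in control and 163, 125 and 387 in heated shoots. In both genes the conditions overlapped in shoots, and without control shoot library 2 the shoot ratio was above 1, at 1.678 for MLOC_73077 and 1.301 for MLOC_72157. Their root libraries did not overlap, with 349 and 493 in control and 639 and 668 in heat for MLOC_73077 and 215 and 186 against 374 and 259 for MLOC_72157.

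MLOC_11835 and MLOC_1690 shared the high control shoot library 2. MLOC_11835 had 2785, 5556 and 2508 normalized counts in control and 1811, 2149.9 and 2990.5 in heated shoots. MLOC_1690 had 55.2, 133 and 38.4 in control and 42.1, 43.1 and 47.1 in heated shoots. In both genes the conditions overlapped, and without that library the shoot ratios were 0.876 and 0.944, short of the threshold. In roots MLOC_11835 went from 271 and 369.9 to 651 and 886, and MLOC_1690 had 1492 and 1876 in control and 2989.8 and 2739.5 in heat, both without overlap. Control shoot library 2 was the highest of its group for 26 of the 45 genes, where 31.1% of the genes with a mean of at least 50 in each table had their highest value in it. It was more than 2 times the next library for 4 of them, against 0.508% of those genes. These were MLOC_73077, MLOC_72157, MLOC_1690 and MLOC_15436, while MLOC_11835 fell just short. Heat shoot library 3 was the highest of its group for 24 of the 45 genes, against 38%. Since the rule takes group means, a high control shoot library helps a gene to pass it, while a high heated one does not. Why these 2 libraries stood high was not tested.

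In roots, MLOC_55847 was the gene whose ratio fell below 1 when 1 library was left out. It had 60.6 and 166 normalized counts in control and 93.7 and 249.8 in heated roots, so that library 2 of each condition was high and the conditions overlapped. Without control root library 1 its root ratio was 1.03, and without heat root library 2 it was 0.827. In shoots its libraries were apart, with 60.3, 72.8 and 108 in control and 31.8, 32.3 and 32.1 in heat. When each of the 10 libraries was left out in turn, 37 to 61 genes met the rule, and 26 of the 45 genes met it every time. The lowest number of the 45 genes was left without control shoot library 2, namely 35.

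**Figure D4:**
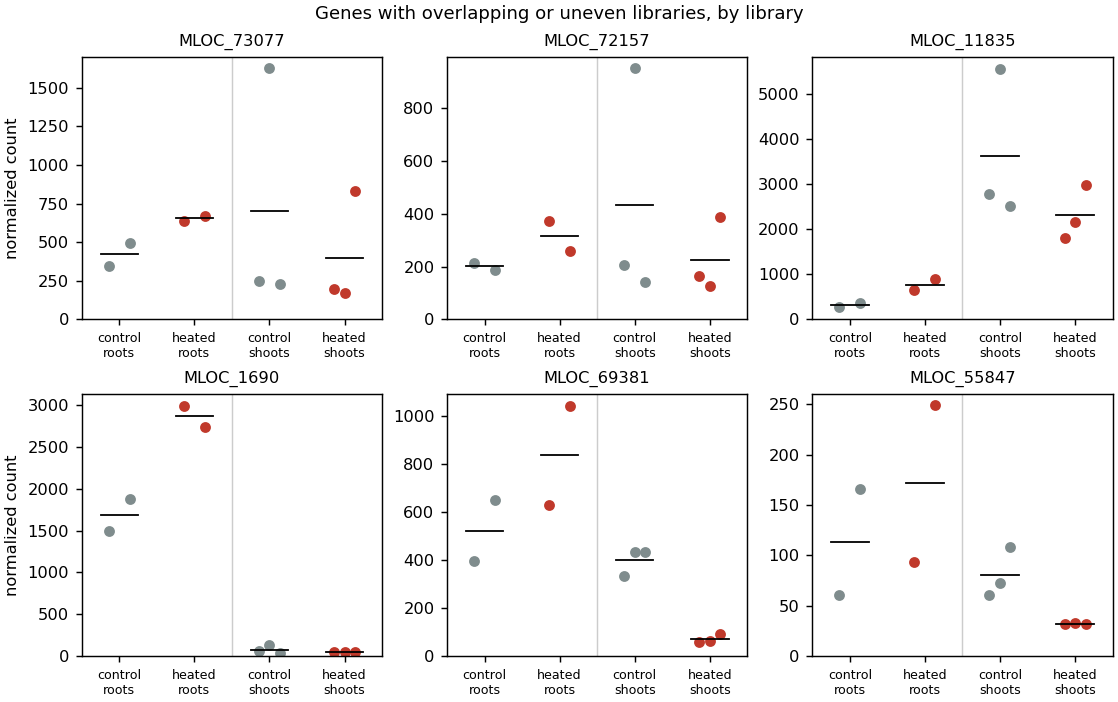
Normalized counts of 6 genes whose libraries overlapped between conditions, drawn as in the panels of the genes with the largest change in both tissues. Control shoot library 2 is the isolated grey point in MLOC_73077 (1627), MLOC_72157 (954), MLOC_11835 (5556) and MLOC_1690 (133), and the overlap is in roots for MLOC_69381 and MLOC_55847.

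Whether the 45 genes were higher in roots or in shoots was asked with a contrast other than the heat ratios of the rule. It was the mean of control and heated roots minus the mean of control and heated shoots, fitted with edgeR to the recovered reads of all 10 libraries. The rule did set a floor of 50 counts in each tissue, which left out genes with few counts in either and so limits these differences. The set held genes of both kinds, as did the genes with a mean of at least 50 in each table. In this contrast 24 of the 45 genes were lower in roots than in shoots and 17 were higher, at an adjusted p under 0.05 over all genes tested. The shares of 53.3% and 37.8% compare with 37.6% lower and 45.1% higher among all genes tested, which had no such floor. Among the genes with a mean of at least 50 in each table, the shares were 42% and 38.4%. The log2 differences ran from -6.32 to 3.997 with a median of -0.55, against a median of -0.04 among the latter genes. Scaled by total reads, 22 genes were called lower and 20 higher in roots, against 30.9% and 52.8% of the latter genes. Whether the set differed from other genes in these shares was not tested. What else differed between root and shoot libraries cannot be told apart from tissue.

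The genes furthest on the shoot side were MLOC_10453, MLOC_13187 and MLOC_56250. Their log2 differences of roots minus shoots were -6.32 (95% confidence interval -6.67 to -5.97), -5.74 (-5.96 to -5.51) and -5.56 (-5.87 to -5.25), with edgeR adjusted p of 4.7e-14, 2.7e-15 and 5.7e-14. Further genes on this side were MLOC_11835 at -3.79, MLOC_5705 at -2.83, MLOC_58764 at -2.79, MLOC_7699 at -2.71 and MLOC_6480 at -2.04, all called. On the root side stood MLOC_1690 with a log2 difference of 3.997 (3.53 to 4.46), MLOC_76410 with 2.57 (2.24 to 2.90) and MLOC_54929 with 1.92 (1.75 to 2.08), at edgeR adjusted p of 2.5e-10, 8.7e-10 and 6.3e-12. MLOC_54929 had 1031 and 1093 normalized counts in control and 1665 and 1689 in heated roots, and 205, 187 and 197 in control and 115, 121 and 101 in heated shoots, apart in both. MLOC_19090 at 1.68, MLOC_43777 at 1.59, MLOC_56819 at 1.503, MLOC_55834 at 1.252 and MLOC_57804 at 1.00 were called on the root side too.

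Between these, 4 genes were not called in either direction. The log2 differences were 0.04 (95% confidence interval -0.26 to 0.35) for MLOC_24640, 0.05 (-0.27 to 0.37) for MLOC_4858, 0.20 (-0.04 to 0.44) for MLOC_21416 and 0.21 (-0.46 to 0.88) for MLOC_55847. MLOC_4858 and MLOC_21416 were named after their values had been seen. MLOC_73077, with its uneven shoot libraries, was called at -1.26 (-2.43 to -0.09, edgeR adjusted p = 0.044). Without control shoot library 2 it was at -0.48 and not called (adjusted p = 0.22), and without heat shoot library 3 at -0.70 (adjusted p = 0.20). The edgeR call was also lost without control root library 1, heat root library 1 or heat root library 2, at adjusted p of 0.092, 0.077 and 0.071.

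The difference between tissues was also taken within each temperature, as a description. In control plants alone 6 of the 45 genes were called higher in roots and 29 lower, against 34.4% and 36.5% of the genes with a mean of at least 50 in each table. In heated plants alone 24 were called higher in roots and 15 lower, against 33.7% and 40.5%. The rule builds in such a shift, since it takes genes that rise in heated roots and fall in heated shoots. Nothing is read from these counts, nor from the switches of order given next, which the rule favours in the same way. For 19 genes the estimates put shoots first in both conditions (43.8% of the genes with a mean of at least 50 in each table) and for 12 roots first in both (40.4%). For 14 genes the order switched, from shoots first in control to roots first in heat (6.1% of the genes with a mean of at least 50 in each table), and for 8 of these both differences were called (1.01%). These 8, named after their values had been seen, were MLOC_57804, MLOC_21416, MLOC_72841, MLOC_16223, MLOC_24640, MLOC_57623, MLOC_4858 and MLOC_69381. MLOC_69381 went from a log2 difference of -0.80 (-1.31 to -0.28) in control to 2.27 (1.69 to 2.84) in heat. MLOC_24640 went from -1.10 (-1.52 to -0.68) to 1.19 (0.74 to 1.63), and MLOC_72841 from -1.91 (-2.26 to -1.56) to 0.58 (0.23 to 0.93). Scaling by total reads in the split genes moved the tissue contrast by a median of 0.34 toward roots over all genes tested. Those totals leave out the abundant shoot genes that could not be split. The contrasts within a condition were not refitted on another scale, and switches with a small difference on one side rest on the scale chosen.

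**Figure D5:**
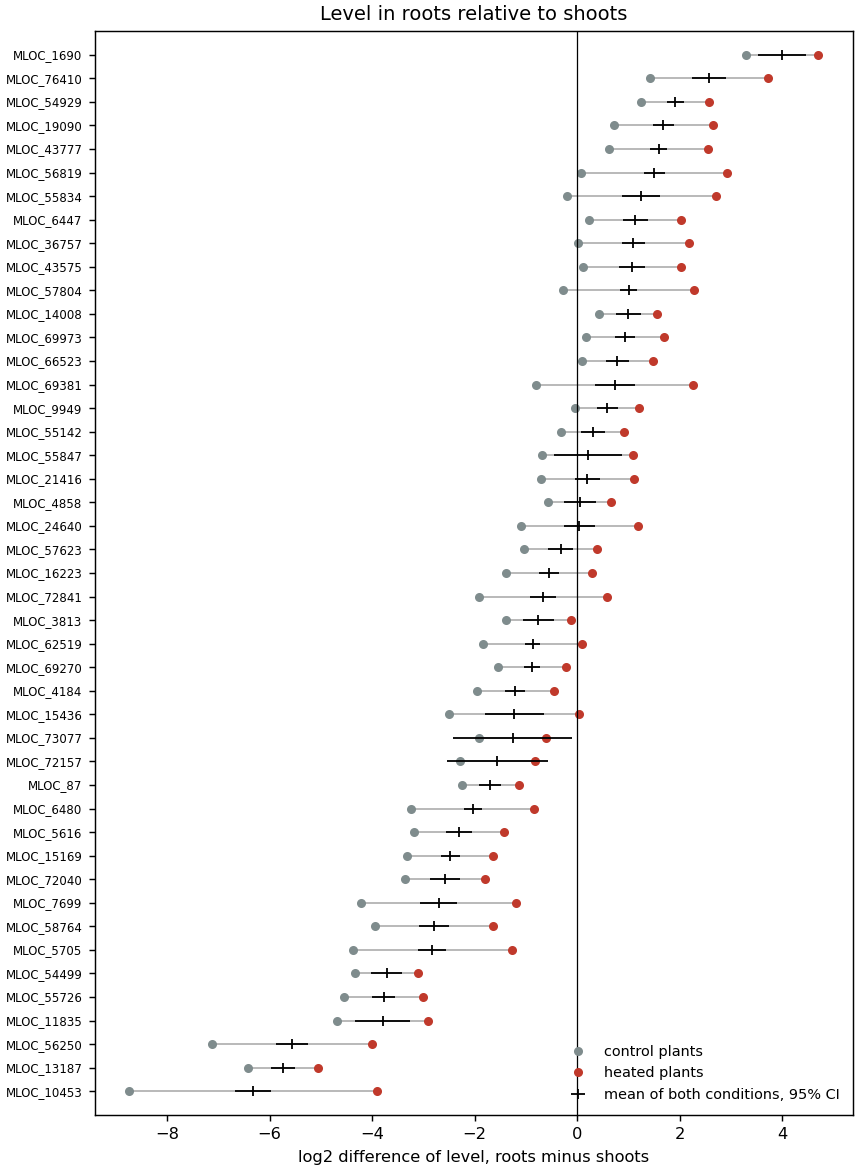
Level in roots relative to shoots for the 45 genes, as the log2 difference of roots minus shoots from edgeR. Grey points are control plants, red points heated plants, and black marks the mean of both conditions with its 95% confidence interval. Genes right of the line at 0 were higher in roots, and the rule itself places every red point to the right of its grey one. The range of the black marks, from -6.32 to 3.997, was not set by the heat ratios of the rule. The floor that the rule puts on counts in each tissue does limit this range.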

How the data were processed

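Reads of strand-specific barley libraries were mapped by the authors to the barley genome of Ensembl Plants (TopHat2), counted per gene with HTSeq and tested per tissue with DESeq. Tool versions, and whether counting used the strand, were not given in the sources used here, so that overlapping or near-identical genes may share reads. The authors deposited a signal per gene, namely the normalized count averaged over the libraries of a group, and their own fold changes, p-values and adjusted p-values, which were not used. Tables limited to the authors' calls were not used either. Lines without a gene (60.4% and 60.6% of normalized counts in control and heated roots, 66.6% and 67.7% in shoots) were left out.

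Group means written with 15 digits were split into whole reads per library. All splits without negative reads were tried for root means and for small shoot means. Larger shoot means were split by lattice reduction, searching combinations near a starting point, which may not reach every solution without negative reads. All 21408 control and 21350 heated root means above 0 had a single solution. In shoots 20588 control and 20599 heated means had one, and 128 and 87 were left unsplit. A further 5 and 12 had several solutions, of which only 1 kept every library within a set distance of the group mean, and that one was taken. Among 2000 randomly shifted means per group, 0, 0, 3 and 0 had a single solution by chance, and shifted means with several solutions were not counted. They were drawn from means of at least 50, without the most abundant genes. The recovered reads were tested with edgeR 4.0.16 (quasi-likelihood test with TMM scaling, the default low-count filter and Benjamini-Hochberg adjustment) in R 4.3.3, over 18453 root genes, 16182 shoot genes and 19098 genes in the fit of all 10 libraries. DESeq2 1.42.0, total scaling, no filter and leaving out each library were the alternatives. Scripts were tested on simulated data. Python 3.11.15, numpy 2.4.6, pandas 2.3.3 and scipy 1.17.1 were used otherwise. Replicates are biological by the study's methods, and p-values rest on the spread of 2 or 3 libraries a group.

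The 45 genes, the lists and the tests were chosen with earlier results of these data known. Named were the 6 genes with the highest root ratio, the 6 with the lowest shoot ratio, the 6 with the largest smaller change, the 3 with the highest mean in each tissue, the 3 with the largest tissue difference in each direction, the 2 nearest to each threshold inside and outside, and up to 6 with overlapping libraries. Beside them stood Hsp90.1 as the check of the heat label, and MLOC_28370 (PHT1;1 and near-identical genes), PHT1;4 and PHO1 as root markers.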

Additional observations from a re-analysis of the deposited data

Results flagged for a closer look

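The heat response in roots differed from that in shoots, as a tissue by heat interaction in the edgeR fit over all 10 libraries, for 42 of the 45 genes at an adjusted p under 0.05, against 7.69% of all genes tested with a root response above the shoot response. The result stands here because the 2 tissues differed in response by this test, but the rule chose the genes for that difference, so that nothing is read from the count. The 3 genes not called were MLOC_72157 (log2 difference of responses 1.47, 95% confidence interval -0.47 to 3.40), MLOC_73077 (1.31, -0.96 to 3.58) and MLOC_55847 (1.78, 0.44 to 3.12, adjusted p = 0.064), whose libraries overlapped between conditions in a tissue.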

How the results depend on the processing

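The rule gave 45 genes. It gave 82 with a mean of at least 20 (all 45 among them), 127 with thresholds of 1.3 and 0.77, 8 with 2 and 0.5, 28 with recovered reads scaled by total reads (21 of the 45) and, in an alternative chosen after seeing the data, 26 with group means scaled by their totals. Scaled by total reads, edgeR called 21 of the 45 genes in roots under heat and 42 in shoots. Libraries were then apart in both tissues for 34 genes. This scaling moved the median of all genes tested by -0.48 in roots and -0.13 in shoots (log2). Its shoot totals leave out the 141 genes not split, and group totals over all genes moved the shoot ratios by -0.23. Higher in roots were 6 genes with control libraries alone, and lower in roots were 15 with heated libraries alone. With any library left out, the tissue contrast called 16 to 18 genes higher and 23 or 24 lower. Of the alternatives to the tissue difference of single named genes, 288 kept direction and side of the threshold. MLOC_73077 was not called in 7, which include DESeq2 (-1.27, adjusted p = 0.11) and total scaling (-0.91, adjusted p = 0.12), with adjusted p of 0.018 to 0.22 over its alternatives, and MLOC_24640 was called under total scaling (0.38, adjusted p = 0.022 from edgeR, against 0.50 to 0.96 otherwise). Its sign turned without heat root library 1 (-0.12) and heat shoot library 2 (-0.04), in a range of -0.12 to 0.10 over left-out libraries, and that of MLOC_55847 without control root library 2 (-0.26) and heat root library 2 (-0.29), in a range of -0.29 to 0.48 over left-out libraries, none of them called. Scaled by total reads, MLOC_55847 was at 0.55. The causes were not tested. No paired analysis was possible because the recovered libraries carry no replicate letter. Depth limits the root ratio of MLOC_10453, with 14 and 10 control reads.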
